A study of Mus musculus with 12 samples.

Results

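The data described here are the transcripts of 8 mouse genes that encode RNA-binding proteins linked to motor neuron disease and frontotemporal dementia, measured by RNAseq in cortex. The genes were Tardbp (TDP-43), Ewsr1, Taf15, Hnrnpa1, Hnrnpa2b1, Matr3, Tia1 and Atxn2. They were chosen by symbol, with earlier results of these data known. They make up 8 of the 36047 genes and 132 of the 118489 transcripts in the deposited tables, and all 8 passed the filter on low values in each of the 12 libraries. The libraries came from the cortex of WT and Gde2KO mice, with 3 of each genotype at 4 months and 3 of each at 19 months. Gde2KO mice lack GDE2, the surface glycerophosphodiester phosphodiesterase encoded by Gdpd5, from the germline and therefore in all cell types of the tissue. Per the methods of the study, mice of both sexes were used, and the labels give neither litter nor day of dissection. The 19-month cortex was profiled to look for splicing defects that accompany TDP-43 pathology. The 4-month cortex was profiled to look for pathways that depend on GDE2 and affect where TDP-43 is located.

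TDP-43 and the hnRNP proteins are mostly nuclear proteins that bind nascent RNA, decide which exons and introns are spliced, and shuttle to the cytoplasm. In motor neuron disease and frontotemporal dementia TDP-43 leaves the nucleus and collects in cytoplasmic inclusions, and mutations in several of the other proteins cause related disorders. Many of these genes also limit their own output: when TDP-43 is abundant it binds UG-rich RNA in its own last exon, an intron within that exon is removed, and the product is degraded or kept in the nucleus. Some forms of the Hnrnpa1 and Hnrnpa2b1 RNAs carry a stop codon upstream of a splice junction, which marks them for nonsense-mediated decay. The share of a gene's RNA in such forms is therefore a separate measurement from the gene's total.

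The splice junctions that separate these forms are shown first, because the isoform results rest on them. Each run holds 15 bases upstream of the junction in lower case and 15 bases downstream in capitals, read on the gene's strand from GENCODE vM21 transcripts on GRCm38. Tardbp lies on the minus strand of chromosome 4 (148612382 to 148627019) and its last exon spans 6410 bases, from 148612382 to 148618791. ENSMUST00000084125.9 keeps that exon whole, and other transcripts have an intron removed from within it. The junctions left by 2 of these introns are given below, each named by a transcript that carries it.
Tardbp ENSMUST00000147391.2, 148617566 joined to 148616844: gctgcgtctttgacgCCCTGAATGCAAAGA
Tardbp ENSMUST00000186711.1, 148618647 joined to 148617825: gctttgggaatcaggGAAAATCTCCATTTG
The first of these introns occurs in 8 of the 30 annotated Tardbp transcripts. The longest series of TG repeats in the Tardbp transcripts had 4 repeats and lies in the last exon. It is shown in capitals within the 30 bases at 148613760 to 148613789 on the minus strand.
Tardbp, longest TG repeats: tcctcctatagTGTGTGTGgacagcccaca
TGTGTGTG or a longer series occurred in 17.2% of 55341 annotated genes, so its presence is not particular to Tardbp. Among the 8 genes the longest series was in Matr3, with 6 repeats.

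Hnrnpa1 lies on the plus strand of chromosome 15 (103240432 to 103246692) and Hnrnpa2b1 on the minus strand of chromosome 6 (51460932 to 51469894). In Hnrnpa1 the exon that ends at 103244028 is joined either to the usual terminal exon or to an exon further downstream, and both forms annotated for nonsense-mediated decay use that last exon.
Hnrnpa1 ENSMUST00000087351.8, coding, 103244028 joined to 103244256: attacatacagccagGAAACAAAGCTTAGC
Hnrnpa1 ENSMUST00000230171.1, decay, 103244028 joined to 103246346: attacatacagccagGAAGGAATCTGCTAT
Hnrnpa1 ENSMUST00000230489.1, decay, 103245966 joined to 103246346: ttgctatgctgctagGAAGGAATCTGCTAT
In Hnrnpa2b1 a 36-base coding exon (51467391 to 51467426) separates the B1 form of the protein, which has it, from the A2 form, which lacks it.
Hnrnpa2b1 ENSMUST00000203220.2, without the exon: gagtccgcgatggagAGAGAAAAGGAACAG
Hnrnpa2b1 ENSMUST00000114459.7, with the exon: ttggagaggaaaaagAGAGAAAAGGAACAG

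The reads were assigned by pseudoalignment, so the separation of forms and genes depends on sequence that only 1 of them has. Of the 31-base words in Tardbp transcripts, 23.8% also occur in another gene, Masp2 or Gm13886, against 29.9% in Hnrnpa1, 24.0% in Ewsr1, 18.1% in Matr3 and at most 3.67% in the other 4 genes. Masp2 was at 8.29 to 122 normalized counts per library and Gm5643, which shares sequence with Hnrnpa1, at 26.3 to 234, while Ppp1r16b, which shares some with Matr3, was at 4240 to 7639. Among the transcripts of 5% or more that are named here, ENSMUST00000147391.2 and ENSMUST00000045180.13 of Tardbp, ENSMUST00000036004.15 and ENSMUST00000087351.8 of Hnrnpa1, ENSMUST00000203220.2 and ENSMUST00000114459.7 of Hnrnpa2b1 and ENSMUST00000225761.1 of Atxn2 have no 31-base word of their own. ENSMUST00000230489.1 of Hnrnpa1 has 33.6% of its words to itself and ENSMUST00000230171.1 has 2.0%. The shares of the forms without words of their own are estimates from combinations of reads.

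The libraries held 46434270 to 59728494 estimated reads at 4 months and 36915259 to 44604721 in 4 libraries of 19 months. The other two of 19 months, called WT library A and Gde2KO library A, held 6734475 and 3707928. Gdpd5, the targeted gene, was at 417, 585 and 403 normalized counts in Gde2KO cortex and 684, 702 and 1199 in WT cortex at 4 months. At 19 months it was at 441, 456 and 560 against 1065, 1129 and 952. All Gde2KO libraries lay below all WT libraries of their age, and the difference passed the test at 19 months (log2 −1.11, adjusted p = 0.0111, limma with Benjamini-Hochberg adjustment) and not at 4 months (log2 −0.85, adjusted p = 0.463). The adjusted p at 19 months was above 0.1 without WT library A (log2 −1.10, adjusted p = 0.118), with sums of TPM (−0.82, 0.513) and without the intensity trend (−1.11, 0.288), with the direction kept. The 5 neuron markers were above 0 in every library, and their summed level was 164296 to 239685 normalized counts at 4 months and 180754 to 203019 at 19 months. The summed level of 7 hippocampal markers was 23532 and 27118 in WT replicates 1 and 2 at 4 months and 3283 to 5330 in the other 4 libraries. The summed level of 6 striatal markers was 2660 and 3394 in the same 2 libraries and 22987 to 57418 in the other 4. WT replicates 1 and 2 at 4 months therefore stand apart from the other libraries of that age, and each 4-month result is also given without them where it changed. Without them the log2 difference of Gdpd5 at 4 months was −1.38.

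Per length, Hnrnpa2b1 was the most abundant of the 8 genes in every group. Its level was 643 ± 70.3 (SD, n = 3) TPM in WT and 634 ± 25.2 in Gde2KO cortex at 4 months, and 582 ± 15.5 and 561 ± 24.4 at 19 months. TPM here are Kallisto's length-normalized abundances, divided by a library size factor by the authors. Matr3, Hnrnpa1 and Ewsr1 came next, between 256 and 405 TPM in group means. At 4 months Matr3 led these 3 genes (342 ± 16.7 TPM in WT, 405 ± 91.7 in Gde2KO), although it overlapped with Hnrnpa1 in WT libraries, and Hnrnpa1 overlapped with Ewsr1 in both genotypes. At 19 months Ewsr1 led them (370 ± 21.6 TPM in WT, 328 ± 30.8 in Gde2KO) and Matr3 was lowest (256 ± 11.9 and 256 ± 26.0). In Gde2KO cortex of that age Ewsr1 overlapped with Hnrnpa1 and Hnrnpa1 with Matr3, and in WT cortex none of these neighbours overlapped. Tardbp ranked 5 of 8 in each group, at 167 ± 5.03 and 155 ± 11.1 TPM at 4 months and 139 ± 13.1 and 146 ± 12.5 at 19 months. Atxn2 ranked 6 of 8, from 97.5 to 123 TPM in group means, and it overlapped with Tardbp only in WT cortex at 19 months. Tia1 and Taf15 had the lowest levels, from 64.9 to 91.6 TPM in group means, and their libraries overlapped in all 4 groups.

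**Figure D1:**
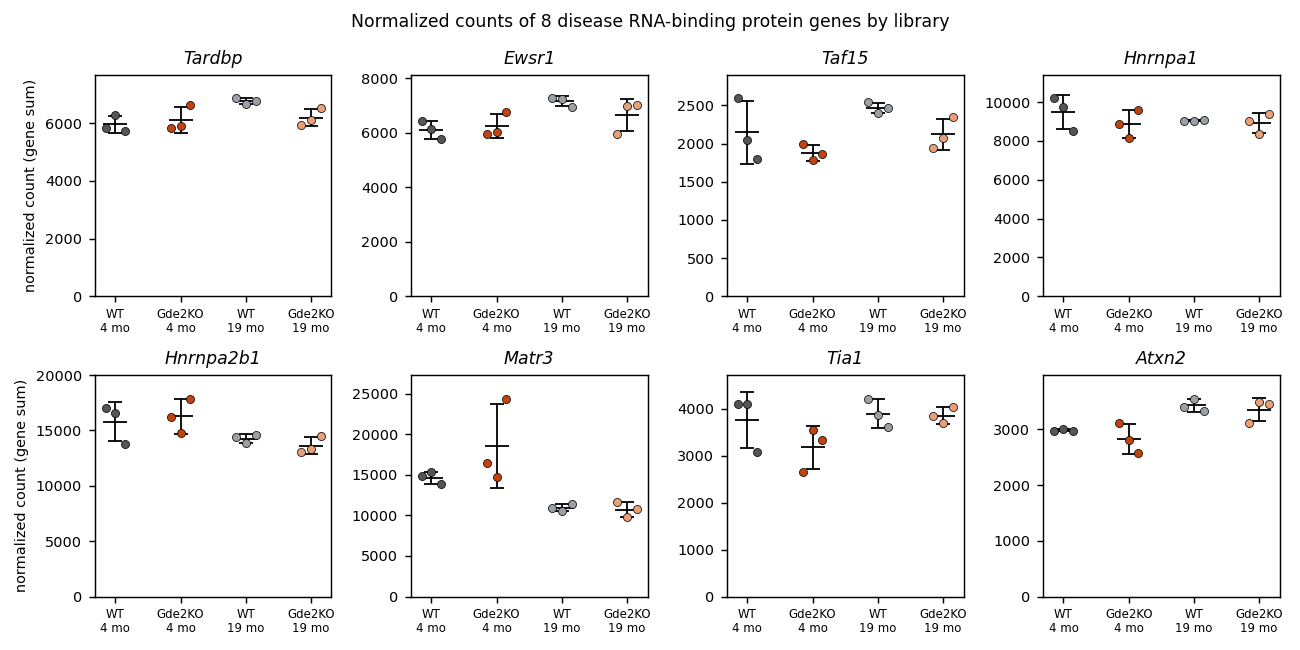
Gene sums of normalized counts (vertical axis, from 0) for the 8 genes in the 4 groups, with each point a library, the bar the mean and the whiskers the SD (n = 3). Matr3 was lower in every 19-month library (9788 to 11614) than in every 4-month library (13872 to 24398), and the 3 Gde2KO libraries of Tardbp at 19 months (5938 to 6514) lie below the 3 WT libraries (6667 to 6857).

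At 4 months none of the 8 genes passed the test between Gde2KO and WT cortex. The groups overlapped in each of the 8, where 15.4% of the 19035 genes tested had groups that did not overlap. Tardbp, the gene for TDP-43, was at 5822, 6294 and 5732 normalized counts in WT and 5811, 5899 and 6608 in Gde2KO cortex. Ewsr1, a nuclear RNA-binding protein of the FET family, was at 6425, 6123 and 5780 in WT and 5969, 6037 and 6750 in Gde2KO cortex. The log2 differences were 0.04 (SE 0.12, adjusted p = 0.892) for Tardbp and 0.03 (SE 0.12, adjusted p = 0.903) for Ewsr1. These and all later adjusted p-values of gene levels come from limma with Benjamini-Hochberg adjustment over every gene tested. The 95% interval of the Tardbp difference ran from −0.24 to 0.31.

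Taf15, the other FET protein measured, was at 2592, 2046 and 1796 normalized counts in WT and 1990, 1780 and 1859 in Gde2KO cortex at 4 months. Tia1, an RNA-binding protein that nucleates stress granules, was at 4112, 4105 and 3070 in WT and 2659, 3541 and 3344 in Gde2KO cortex. These were the lowest differences of the 8, with log2 values of −0.18 (SE 0.16, adjusted p = 0.601) for Taf15 and −0.24 (SE 0.17, adjusted p = 0.536) for Tia1. Without WT replicates 1 and 2 both were positive, at 0.06 for Taf15 and 0.04 for Tia1. Hnrnpa1, which competes at splice sites with activating factors, gave −0.09 (adjusted p = 0.743), and it too turned positive without those libraries (0.06).

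Matr3, a protein of the inner nuclear matrix that binds RNA and DNA, was at 14796, 15323 and 13872 normalized counts in WT and 16519, 14712 and 24398 in Gde2KO cortex. A single Gde2KO library, replicate 3, gave the highest value of the group, and the log2 difference was 0.30 (SE 0.20, adjusted p = 0.516). That library also stood highest for the levels of genes in general, with a scale 1.17 times that given by the median of ratios. Hnrnpa2b1 (log2 0.04, adjusted p = 0.893) and Atxn2 (log2 −0.08, adjusted p = 0.751), a cytoplasmic protein of translation and stress granules, showed smaller differences with overlapping groups.

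Of all 19035 genes tested at 4 months, 24 (0.126%) met both conditions of a call, an adjusted p below 0.1 and a change of more than 0.5 in natural log (0.721 in log2), and 0 of the 8 were among them. None of the 8 had an unadjusted p under 0.05 either, limma being the only test run on gene levels. The median of the 8 log2 differences was −0.02, against 0.11 over all genes tested. When libraries were rescaled by the median of ratios, the median over all genes was 0.01 and the differences of Tardbp, Ewsr1 and Hnrnpa2b1 were −0.06, −0.06 and −0.05. Without WT replicates 1 and 2, the log2 differences of Hnrnpa2b1, Ewsr1 and Tardbp were 0.24, 0.11 and 0.09.

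At 19 months Tardbp and Taf15 had the lowest values in Gde2KO cortex relative to their spread, but neither difference passed the adjusted test. Tardbp was at 6857, 6667 and 6770 normalized counts in WT and 5938, 6120 and 6514 in Gde2KO cortex. Taf15 was at 2539, 2405 and 2464 in WT and 1941, 2076 and 2345 in Gde2KO cortex. For both genes every Gde2KO library lay below every WT library, and this held for 2 of the 8 genes, where 14.2% of the 18583 genes tested had groups that did not overlap. The log2 difference of Tardbp was −0.13 (SE 0.05, unadjusted p = 0.0321, adjusted p = 0.711, limma), which is a fold of 0.915 with a 95% interval of −0.24 to −0.01 in log2. The difference of Taf15 was −0.22 (SE 0.08, unadjusted p = 0.0183, adjusted p = 0.661, limma), a fold of 0.856.

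Both differences were smaller without these 2 low-depth libraries (A of each genotype), at −0.09 for Tardbp and −0.14 for Taf15. With sums of TPM in place of normalized counts, the Tardbp difference changed sign (0.07) and that of Taf15 was −0.12. Markers of striatum and hippocampus moved with genotype in these libraries: 6 of 6 striatal markers had positive differences (median log2 1.03), and 7 of 7 hippocampal markers did (median log2 0.64), of which 1 was called. Their summed levels were 5588 to 8022 in WT and 7233 to 15672 in Gde2KO cortex for the striatal list, and 3026 to 3253 and 3961 to 5313 for the hippocampal list. Among markers of other cell types, all 5 oligodendrocyte markers (median log2 0.24) and all 5 astrocyte markers (0.14) had positive differences, and all 5 endothelial (−0.21) and all 5 blood markers (−0.36) negative ones. Of the microglial markers 4 of 5 were positive (0.11), of the neuron markers 1 of 5 (−0.08) and of the choroid plexus markers 2 of 5 (−0.09), and 0 markers of these 7 lists were called. Their part in the differences of Tardbp and Taf15 was not tested. In whole tissue, fewer cells of a type and less RNA per cell cannot be told apart.

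The other 6 genes differed by −0.11 to −0.01 in log2 at 19 months. Ewsr1 was at 7266, 7253 and 6947 normalized counts in WT and 5963, 6978 and 7026 in Gde2KO cortex (log2 −0.11, SE 0.07, adjusted p = 0.734). The low value came from library A, which held 3707928 estimated reads, and the other libraries overlapped with WT. Hnrnpa1 (log2 −0.02), Hnrnpa2b1 (−0.07), Matr3 (−0.04), Tia1 (−0.01) and Atxn2 (−0.03) had overlapping groups. Among these 5 genes the 95% interval was widest for Tia1, from −0.17 to 0.14. Of all genes tested at 19 months, 18 (0.0969%) were called, and 0 of the 8 were called, while 2 of the 8 had an unadjusted p under 0.05.

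The effect of genotype was not shown to differ between the ages for any of the 8 genes. The interaction was called for 9 of 18731 genes (0.048%) at an adjusted p under 0.1, and for 0 of the 8, with no unadjusted p under 0.05 among them. The log2 interaction was −0.34 (SE 0.22, adjusted p = 0.474) for Matr3, the smallest adjusted p of the 8, −0.17 (adjusted p = 0.508) for Tardbp and 0.23 (adjusted p = 0.568) for Tia1. The median over all genes was −0.15.

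**Figure D2:**
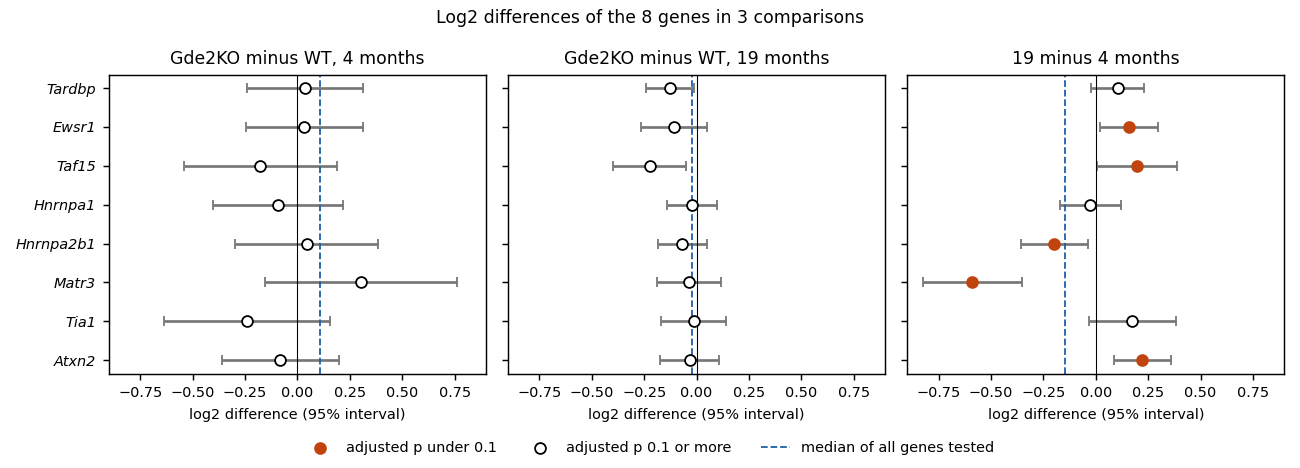
Log2 differences of the 8 genes (horizontal axis) with 95% intervals for Gde2KO against WT at 4 and at 19 months and for 19 against 4 months over both genotypes, filled where the adjusted p was under 0.1. All intervals at 4 months cross 0, those of Tardbp and Taf15 at 19 months lie below it, and the dashed line marks the median of all genes tested (0.11, −0.02 and −0.15).

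Between the ages Matr3 fell and Atxn2 rose, in libraries of both genotypes. The 4-month and 19-month libraries came from different animals and differ in depth, so age and any difference between the 2 sets of libraries cannot be told apart. These were the 2 genes of the 8 whose libraries did not overlap between the ages, where 19.2% of the 18731 genes tested had ages that did not overlap. Matr3 was at 13872 to 24398 normalized counts in the 6 libraries of 4 months (14796, 15323 and 13872 in WT, 16519, 14712 and 24398 in Gde2KO). It was at 10913, 10576 and 11432 in WT and 11614, 9788 and 10744 in Gde2KO cortex at 19 months. The log2 difference was −0.59 (SE 0.11, adjusted p = 0.00216), a fold of 0.665, and −0.44 relative to the median of all genes, which was −0.15.

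Atxn2 was at 2969, 3014 and 2980 normalized counts in WT and 3109, 2808 and 2580 in Gde2KO cortex at 4 months. At 19 months it was at 3409, 3552 and 3327 in WT and 3119, 3490 and 3461 in Gde2KO cortex. The log2 difference was 0.22 (SE 0.06, adjusted p = 0.0158), a fold of 1.17, and 0.37 relative to the median of all genes. Neither difference reached the fold threshold of a call, and both kept an adjusted p under 0.1 with each library left out in turn, from 0.00043 to 0.00791 for Matr3 and 0.0111 to 0.0454 for Atxn2 in limma.

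Markers of cell types and regions also moved between the ages. The summed level of 5 oligodendrocyte markers was 92611 to 130553 normalized counts at 4 months and 63989 to 100340 at 19 months, with 4 of 5 lower by the adjusted p (median log2 −0.52). That of 5 astrocyte markers was 28946 to 52609 and 22277 to 32693, with 3 of 5 lower and 1 higher (median −0.43). That of the striatal list was 2660 to 57418 and 5588 to 15672, with 3 of 6 lower (median −1.27), and that of the hippocampal list was 3283 to 27118 and 3026 to 5313, with 3 of 7 lower (median −1.09). The blood list had 3 of 5 higher (median 0.91) and the endothelial list 2 of 5 higher and 1 lower (median 0.21). The neuron list had 1 of 5 higher (median 0.10), the microglial list 1 of 5 lower (−0.10) and the choroid plexus list 1 of 5 in each direction (−0.73). Their part in the differences of the 8 genes between the ages was not tested.

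A further 3 genes passed an adjusted p of 0.1 without reaching the fold threshold, and each depended on single libraries. Hnrnpa2b1 was at 17071, 16565 and 13783 normalized counts in WT and 16174, 14769 and 17877 in Gde2KO cortex at 4 months. It was at 14391, 13830 and 14592 in WT and 13078, 13323 and 14479 in Gde2KO cortex at 19 months (log2 −0.20, SE 0.07, adjusted p = 0.0528). The ages overlapped, and the difference was −0.05 relative to the median of all genes and −0.09 (adjusted p = 0.251) after rescaling by the median of ratios. Its adjusted p was above 0.1 without WT replicate 1 (0.118) or 2 (0.117) of 4 months or without WT library B (0.112) or Gde2KO library B (0.106) of 19 months. Ewsr1 was higher at 19 months (log2 0.16, SE 0.06, adjusted p = 0.0702), as was Taf15 (log2 0.20, SE 0.09, adjusted p = 0.0986).

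With each of the 12 libraries left out in turn, Ewsr1 kept an adjusted p under 0.1 in 5 cases, those without WT replicate 1 (0.0752), Gde2KO replicate 2 (0.0899) or Gde2KO replicate 3 (0.0289) of 4 months and without WT library C (0.0931) or Gde2KO library A (0.0311) of 19 months, and its highest value was 0.157. Taf15 kept it in 2 cases, without WT replicate 1 of 4 months (0.0206) or Gde2KO library A of 19 months (0.0794), and its highest value was 0.21. After rescaling, both had smaller adjusted p-values, 0.00481 for Ewsr1 and 0.0179 for Taf15.

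The remaining 3 genes did not pass at this scaling. Tardbp had a log2 difference of 0.10 between the ages (SE 0.06, adjusted p = 0.173) and Tia1 of 0.17 (SE 0.09, adjusted p = 0.162). After rescaling they were 0.21 (adjusted p = 0.00823) and 0.28 (adjusted p = 0.0447). For Tardbp the sums of TPM gave the opposite sign, −0.17 (adjusted p = 0.0691), so its direction with age was not settled by these values. Tia1 was at 4218, 3860 and 3620 normalized counts in WT and 3849, 3692 and 4033 in Gde2KO cortex at 19 months, which overlapped with its 4-month values above. Hnrnpa1 was at 10198, 9730 and 8497 normalized counts in WT and 8874, 8132 and 9618 in Gde2KO cortex at 4 months, and at 9025, 9053 and 9089 and at 9009, 8380 and 9394 at 19 months. Its log2 difference was −0.03 (SE 0.07, adjusted p = 0.782), and 0.08 after rescaling.

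By the rule with the fold threshold, 0 of the 8 genes were called between the ages, where 14% of all genes were (4.52% higher and 9.49% lower). By the adjusted p alone 3 of the 8 were higher and 2 lower, against 15.3% and 32% of all genes (47.3% in both directions), or 2872 higher and 5988 lower. Rescaling by the median of ratios changed the latter split to 4239 higher and 4551 lower, and its count among the 8 to 6.

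The composition of Tardbp RNA did not pass the usage test between genotypes or between ages, although it passed 1 alternative test between the ages, given below. The shares of 2 of its 7 transcripts of 5% or more did not overlap between the ages, where 4.62% of 41904 such transcripts of all genes did not overlap, and 9 of the 50 in the 8 genes. Transcript usage was tested by the F test of limma's diffSplice over all transcripts of a gene, and a gene was called at an adjusted p under 0.1 with a change above 10 percentage points in a transcript's share of the gene's TPM. At 4 months the adjusted p of Tardbp was 0.959, at 19 months it was 1.0 and between the ages it was 0.676. The transcript with an uninterrupted last exon, ENSMUST00000084125.9, held 15.2, 17.0 and 15.3% of Tardbp TPM in WT and 18.4, 17.0 and 16.3% in Gde2KO cortex at 4 months. It held 28.5, 26.8 and 23.0% in WT and 22.4, 19.8 and 23.9% in Gde2KO cortex at 19 months. The ages did not overlap, the mean difference was 7.54 percentage points, and the adjusted p of this transcript in diffSplice was 0.659.

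The transcript ENSMUST00000147391.2, annotated for nonsense-mediated decay and carrying the first intron shown above, was lower in every 19-month library than in every 4-month library. It held 14.6, 14.3 and 13.4% in WT and 13.8, 14.9 and 16.3% in Gde2KO cortex at 4 months, and 8.33, 8.57 and 9.19% in WT and 9.28, 5.82 and 6.99% in Gde2KO cortex at 19 months. Another decay transcript with this intron, ENSMUST00000045180.13, overlapped between the ages, and between genotypes at 19 months. At 4 months it held 6.72, 6.52 and 6.23% in WT and 7.83, 7.22 and 11.6% in Gde2KO cortex, without overlap. Of transcripts of 5% or more, genotypes did not overlap at 4 months in 2 of 50 in the 8 genes and 16.6% of 41397 in all genes. A test of the logit of each share, with the smallest p per gene by Simes, gave an adjusted p of 0.0363 for Tardbp between the ages, so whether Tardbp passed depends on whether shares of TPM or log normalized counts are tested.

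Grouped by the last exon, 25 of the 30 Tardbp transcripts carry an intron within it, 3 reach it without such an intron and 2 do not reach it. Of these 3, ENSMUST00000084125.9 keeps the exon whole. ENSMUST00000190696.6, annotated for nonsense-mediated decay, ends at 148618035 and covers only part of it. Transcripts with the intron summed to 50.9 ± 3.22% (SD, n = 3) in WT and 57.1 ± 7.33% in Gde2KO cortex at 4 months, and to 46.9 ± 3.68% and 43.3 ± 7.79% at 19 months. Transcripts that reach the exon without such an intron summed to 28.5 ± 2.33% and 28.5 ± 3.06% at 4 months and to 40.2 ± 5.60% and 36.2 ± 3.37% at 19 months. That sum was 25.0 to 30.8% in the 4-month libraries and 32.5 to 45.6% in the 19-month libraries, with no overlap. It is not a measure of the whole exon, since ENSMUST00000190696.6 held 8.68 to 14.8% of Tardbp TPM at 4 months and 10.3 to 17.2% at 19 months. No test was run on these sums. The sum of the 2 transcripts that do not reach the last exon varied most, from 5.15 to 30.4% at 19 months, and nearly all of it was the retained-intron transcript ENSMUST00000190478.1.

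**Figure D3:**
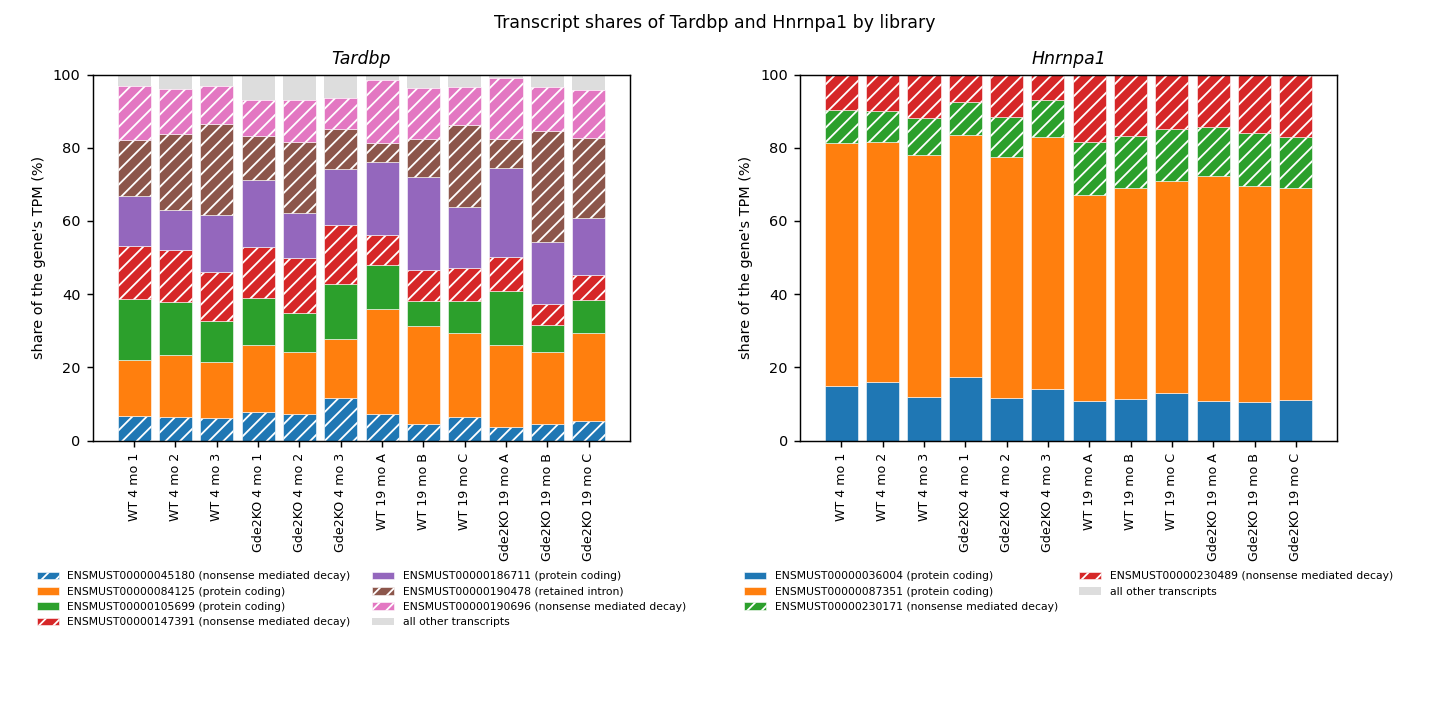
Shares of the gene's TPM (vertical axis, %) in each of the 12 libraries (horizontal axis) for the Tardbp and Hnrnpa1 transcripts that reached 5% in any group, hatched where the transcript is not annotated as protein coding, with the rest in grey. ENSMUST00000084125 of Tardbp held 15.2 to 18.4% at 4 months and 19.8 to 28.5% at 19 months, and the 2 hatched Hnrnpa1 transcripts together held 16.6 to 22.4% and 27.8 to 32.7%.

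Hnrnpa1 passed the tests of usage and of decay transcripts between the ages. Its coding transcript ENSMUST00000087351.8 held 66.3, 65.5 and 66.1% of Hnrnpa1 TPM in WT and 66.0, 66.0 and 68.9% in Gde2KO cortex at 4 months, and 56.2, 57.9 and 57.8% and 61.3, 59.0 and 58.0% at 19 months. The decay transcript ENSMUST00000230489.1, with the intron downstream of the stop codon, held 9.59, 9.94 and 11.7% in WT and 7.56, 11.5 and 6.77% in Gde2KO cortex at 4 months. At 19 months it held 18.4, 16.8 and 14.8% in WT and 14.4, 16.0 and 16.9% in Gde2KO cortex. Every 19-month library lay above every 4-month library, by 6.71 percentage points in the mean (transcript adjusted p = 0.0108, limma diffSplice).

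The second decay transcript of Hnrnpa1, ENSMUST00000230171.1, held 9.03, 8.46 and 10.3% in WT and 8.99, 10.9 and 10.2% in Gde2KO cortex at 4 months. It held 14.3, 14.0 and 14.3% in WT and 13.5, 14.4 and 14.0% in Gde2KO cortex at 19 months. The ages did not overlap, with a mean difference of 4.45 percentage points, and this transcript did not pass on its own (adjusted p = 0.255). The coding transcript ENSMUST00000036004.15, which carries a 159-base exon (chromosome 15, 103242922 to 103243080), fell by 3.03 percentage points (adjusted p = 0.0245). Over the gene the usage test gave an adjusted p of 0.00107, and it stayed under 0.1 in all 17 alternatives run, from 2.18e-05 to 0.0363. No transcript moved by more than 10 percentage points, so Hnrnpa1 was not called by the rule with both conditions.

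Between the ages, 0 of the 8 genes were called for usage by that rule, where 3.88% of 12304 genes were, and 4 of the 8 passed the adjusted p alone, where 11.1% of genes did. Beside Hnrnpa1 these were Atxn2, Matr3 and Taf15. In Atxn2 (adjusted p = 1.15e-05) a retained-intron fragment, ENSMUST00000161433.1, held 6.85 to 9.26% at 4 months and 11.8 to 20.1% at 19 months. The coding fragment ENSMUST00000225761.1 of Atxn2 held 8.85, 6.94 and 7.88% in WT and 4.14, 7.81 and 0% in Gde2KO cortex at 4 months, and it was listed at 0 in 4 of the 6 libraries of 19 months and at 0.846 and 1.04% in the others.

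In Matr3 (adjusted p = 0.000147) and Taf15 (adjusted p = 0.0115) the transcripts that passed on their own were minor. ENSMUST00000235581.1 of Matr3 fell by 0.216 percentage points and ENSMUST00000126134.1 of Taf15 fell by 0.85. The most abundant Matr3 transcript, ENSMUST00000235960.1, held 46.0 to 61.6% at 4 months and 43.8 to 53.9% at 19 months, with overlap between the ages. Its genotypes did not overlap at 19 months, with 53.9, 48.3 and 47.2% in WT and 43.8, 45.1 and 46.0% in Gde2KO cortex. Matr3 did not pass the usage test between genotypes at that age. The adjusted p of Taf15 was above 0.1 without WT replicate 2 of 4 months (0.56), with a mean of 20 normalized counts per transcript (0.16) and on the logit of the share (0.226), and that of Matr3 on the logit of the share (0.123).

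Between genotypes, 0 of the 8 genes were called for usage at 4 months, where 0.997% of 12235 genes were, and 0 at 19 months, where 0.171% of 12253 were. By the adjusted p alone, which 2.65% of genes passed at 4 months, Hnrnpa2b1 was the single member that passed (adjusted p = 0.00868). That result rested on ENSMUST00000204158.2, whose share rose by 0.135 percentage points (transcript adjusted p = 1.4e-05), and no Hnrnpa2b1 transcript moved by more than 1.67 points. Its adjusted p was above 0.1 with a mean of 20 normalized counts per transcript (0.614), a pseudocount of 5 (0.104), on the logit of the share (0.989), under the replicate block (0.151), and without WT replicate 2 (0.514), WT replicate 3 (0.276) or Gde2KO replicate 3 (0.429). At 19 months none of the 8 passed the adjusted p alone, where 0.326% of genes did, and Atxn2 alone had an unadjusted p under 0.05 (0.0187, adjusted p = 0.73, limma).

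The largest share difference between genotypes in any of the 8 genes was in Taf15 at 19 months. The coding transcript ENSMUST00000021018.10 held 72.3, 68.9 and 66.2% of Taf15 TPM in WT and 55.1, 61.2 and 58.3% in Gde2KO cortex, a difference of −10.96 points. The groups did not overlap, and the usage test gave an adjusted p of 0.979. At 4 months the same transcript held 66.1, 58.0 and 50.3% in WT and 63.1, 49.9 and 69.6% in Gde2KO cortex, with overlap. At 19 months 13.1% of 41769 transcripts of 5% or more in all genes had groups that did not overlap. Of the 50 in the 8 genes, 6 lay higher and 3 lower in every Gde2KO library.

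The shares of alternative coding exons were not tested between genotypes. The 36-base exon of Hnrnpa2b1 was in transcripts that made up 17.0 ± 0.85% (SD, n = 3) of its TPM in WT and 17.1 ± 1.52% in Gde2KO cortex at 4 months, and 15.2 ± 2.83% and 14.5 ± 1.81% at 19 months. The 159-base exon of Hnrnpa1 was in 24.7 ± 1.17%, 22.9 ± 2.06%, 28.4 ± 0.80% and 26.6 ± 1.38% in the same order. These values combine the coding transcript ENSMUST00000036004.15 and the decay transcript ENSMUST00000230489.1. In WT libraries they were 23.6 to 25.9% at 4 months and 27.8 to 29.3% at 19 months. An 18-base exon of Ewsr1 (chromosome 11, 5091460 to 5091477) was in 13.2 ± 0.67%, 16.5 ± 3.73%, 13.8 ± 2.41% and 16.4 ± 0.38%. For each of these exons the WT and Gde2KO libraries overlapped at both ages.

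Transcripts not annotated as protein coding were summed for each gene. The sum follows the annotation and does not measure how much of the RNA makes no protein. Some of these transcripts are short, such as ENSMUST00000190478.1 of Tardbp (370 bases), and TPM is a value per length. In WT cortex at 4 months this share was 77.5% for Tia1, 54.9% for Tardbp, 50.5% for Ewsr1, 50.1% for Atxn2, 22.8% for Hnrnpa2b1, 19.7% for Hnrnpa1, 18.6% for Matr3 and 15.2% for Taf15. Retained introns made up most of it in Tia1, Hnrnpa2b1 and Matr3, processed transcripts all of it in Ewsr1, and decay transcripts all of it in Hnrnpa1 and most of it in Tardbp. These classes are those of the annotation, and no measurement of decay was made.

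For Hnrnpa1 the share was 18.6, 18.4 and 22.0% in WT and 16.6, 22.4 and 17.0% in Gde2KO cortex at 4 months, and 32.7, 30.9 and 29.2% in WT and 27.8, 30.4 and 30.9% in Gde2KO cortex at 19 months. The ages did not overlap, as in 5.74% of genes tested, and genotypes did at both ages. The difference between the ages was 11.2 percentage points (logit 0.59, SE 0.10, adjusted p = 0.0199, limma), and it stayed under 0.1 in all 17 alternatives run, from 0.00875 to 0.0733. Hnrnpa1 was 1 of the 8 genes called for this share between the ages, where 11.5% of 10228 genes were called (8.64% higher, 2.88% lower). Over all genes the median difference was 1.09 points, and 62.2% of genes had a higher share at 19 months.

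For Tardbp the share was 53.2, 55.3 and 56.2% in WT and 46.0, 54.9 and 50.3% in Gde2KO cortex at 4 months. It was 39.4, 39.6 and 49.6% in WT and 37.5, 54.0 and 49.8% in Gde2KO cortex at 19 months. The groups overlapped, and the difference between the ages was −7.64 points (adjusted p = 0.227). As a share of normalized counts in place of TPM it was −6.54 points with an adjusted p of 0.0154. Taf15 was lower by 5.82 points (adjusted p = 0.127), and Ewsr1, Matr3 and Hnrnpa2b1 were higher by 6.10 (0.192), 5.44 (0.116) and 5.06 points (0.181), none of them past the threshold.

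**Figure D4:**
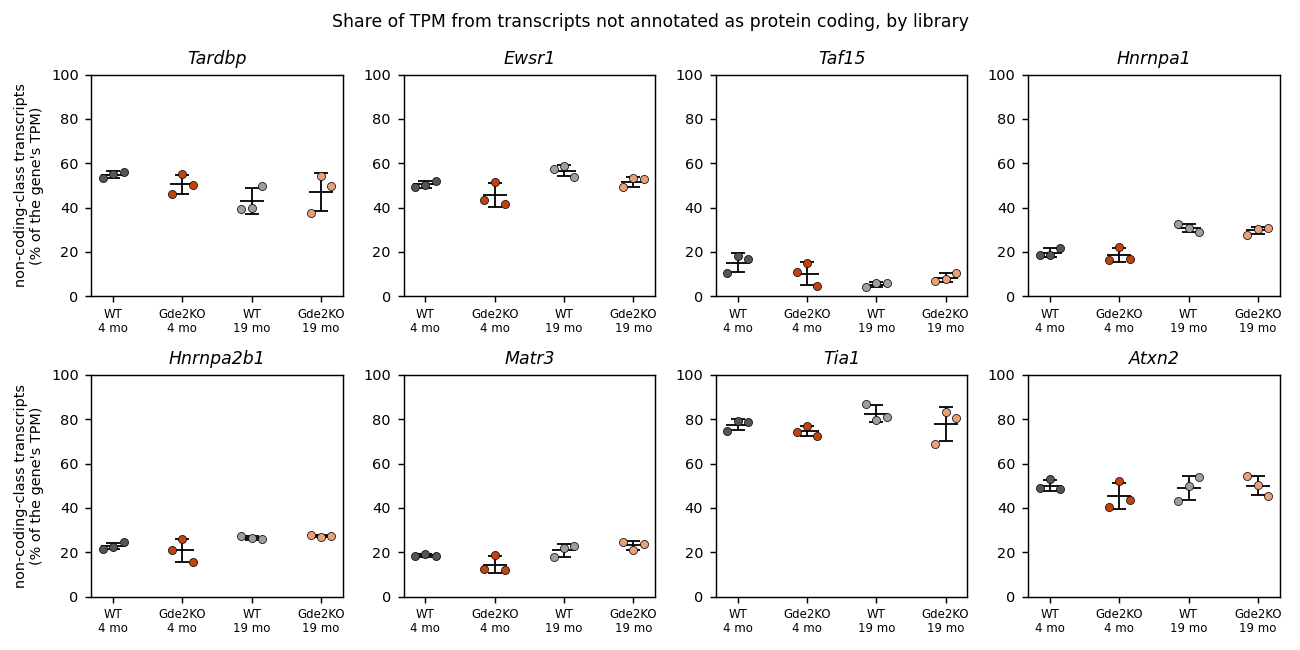
Share of each gene's TPM from transcripts not annotated as protein coding (vertical axis, %, 0 to 100) in the 4 groups, with points for libraries, the bar for the mean and whiskers for the SD (n = 3). Hnrnpa1 is at 16.6 to 22.4% in the 6 libraries of 4 months and 27.8 to 32.7% in those of 19 months, while the ages overlap in Tardbp.

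Between genotypes no share of this kind was called in the 8 genes at either age, nor did any have an unadjusted p under 0.05. At 4 months all 8 differences were negative, from −5.07 points in Taf15 to −1.02 in Hnrnpa1, but the median over all genes was −1.65 and 27.7% of genes had a positive difference, with 7 of 10184 (0.0687%) called. At 19 months 0 of 10089 genes (0%) were called, with 345 at an unadjusted p under 0.05. There the Ewsr1 share was 57.3, 58.6 and 53.8% in WT and 49.1, 53.2 and 52.8% in Gde2KO cortex, with no overlap (−4.85 points, adjusted p = 0.86). The Taf15 share was 4.17, 5.83 and 5.85% in WT and 6.87, 7.75 and 10.7% in Gde2KO cortex, also with no overlap (3.16 points, adjusted p = 0.86). The groups did not overlap in 11.8% of all genes tested for this share at 19 months.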

How the data were processed

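RNA of 12 mouse cortices was enriched for poly(A), sequenced in paired-end libraries and, per the methods of the study, quantified with Kallisto on the GRCm38 transcriptome and analysed with Sleuth. The authors deposited 2 transcript tables of signal values: estimated counts and TPM, each divided by a library size factor. Neither holds whole counts, so no count model was used. Groups were taken from the labels. The 19-month columns name no replicate number and are called A, B and C in column order.

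Gene levels are sums over a gene's transcripts, and 1673 transcripts without a gene (0.541 to 0.605% of a library's total) were left out. Genes with at least 5 normalized counts in 47% of the libraries of a comparison were tested with limma 3.58.1 in R 4.3.3 on log2(value + 0.5), allowing for an intensity trend, within each age, and over all 12 libraries for age and the interaction. Transcript usage used diffSplice on transcripts with a mean of 5 or more. The unproductive share was tested on the logit with an offset of 0.01, in genes with a mean sum of 50 or more and a mean share of 1 to 99%. p-values were adjusted by Benjamini-Hochberg over all genes tested. Nothing in the labels ties libraries to separate litters, so p-values measure the spread between these samples. The column names of Gde2KO libraries B and C at 19 months begin with the same identifier, which no other library has. Its meaning is not given, so these libraries may not be independent. One estimated read was 0.597 to 0.721 normalized counts at 4 months and 0.702 to 8.29 at 19 months.

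The 8 genes, the gene lists, the markers and the tests were chosen with earlier results of these data known. Named were all 8 genes, Gdpd5 and the 5 genes most like Tardbp. Of 2 context lists the called members were named, or the 2 of smallest adjusted p. Of the transcripts of 5% or more in the 8 genes, only part were named, with a few minor ones. Scripts were tested on simulated data. Positions and sequences are from GENCODE vM21, and the sequence of some Tardbp junctions is not reported here. The tables came from pandas 2.3.3 and numpy 2.4.6 under Python 3.11.15, and matplotlib 3.10.9 drew the plots.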

Additional observations from a re-analysis of the deposited data

How the results depend on the processing

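Of 1371 alternative values for single genes, 1296 kept direction and side of the threshold, 53 changed sign, 17 passed the threshold newly and 5 lost it. Depth limits the 19-month comparisons, where 1 estimated read of library A is worth up to 8.29 normalized counts. Unless stated otherwise the cause of a change was not tested.

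Counts of called genes over all genes moved most. At 4 months the 24 called genes became 12 without a filter, 12 without the intensity trend, 2934 with library weights (whose estimate did not converge) and 14 without WT replicates 1 and 2. With 1 library left out the count was 5 to 1510, the highest without WT replicate 3. The replicate block, used as an alternative although same-numbered samples did not deviate together (r of 0.031, −0.036 and −0.100), gave 21 genes for gene level, 97 for usage and 0 for the unproductive share, and the 19-month columns carry no number. Usage at 4 months (122 genes) became 262 with the Simes adjustment, 21 on the logit and 83 to 659 with 1 library left out, the highest without Gde2KO replicate 2. The unproductive share at 4 months (7 genes) became 17 with an offset of 0.001, 0 with shares of normalized counts, 1 with a mean sum of 500, 0 without WT replicates 1 and 2 and 3 to 21 with 1 library left out. At 19 months gene level (18 genes) became 7 without the trend, 77 with weights, 34 without the low-depth libraries and 9 to 45 with 1 library left out, the lowest without WT library A and the highest without Gde2KO library B. Usage (21 genes) became 47 with Simes, 3 on the logit, 122 without the low-depth libraries and 22 to 59 with 1 left out. The unproductive share (0 genes) became 5 with an offset of 0.001, 1 with decay transcripts alone, 14 without the low-depth libraries and 0 to 7 with 1 left out. The interaction (9 genes) became 8744 with weights, which called 1 of the 8 genes (Tia1, 0.62), and 6 to 2029 with 1 left out, the highest without WT replicate 3 of 4 months. Between the ages, gene level (2623 genes) became 1745 with TPM, usage (478) became 787 with a pseudocount of 5, 816 without the low-depth libraries and 284 to 691 with 1 left out, and the unproductive share (1179) became 28 with decay transcripts alone and 419 to 1811 with 1 left out. Of the 8 genes, 1 was called for the unproductive share between the ages, against 3 with shares of normalized counts, 3 with a mean sum of 500, and 1 to 4 with 1 left out.

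Signs changed only in differences that were not called. At 4 months the log2 difference of Tardbp (0.04) was −0.061 rescaled, −0.11 with TPM, −0.092 with weights and −0.022 to 0.078 with 1 library left out. That of Ewsr1 (0.03) was −0.064, −0.16, −0.040 and −0.024 to 0.069, and that of Hnrnpa2b1 (0.04) was −0.053, −0.016, −0.025 and −0.052 to 0.11, in the same order. With weights Atxn2 was 0.048, and without WT replicates 1 and 2 Taf15, Hnrnpa1 and Tia1 were 0.061, 0.059 and 0.041. At 19 months TPM gave 0.067 for Tardbp, 0.0056 for Atxn2 and 0.11 for Tia1. Weights gave 0.0019 for Hnrnpa2b1, 0.0011 for Hnrnpa1 and 0.024 for Tia1, and the fit without the low-depth libraries gave 0.016 for Atxn2 and 0.046 for Tia1. With 1 library left out the 19-month values were −0.097 to 0.026 for Matr3, −0.061 to 0.020 for Atxn2, −0.060 to 0.023 for Hnrnpa1 and −0.066 to 0.045 for Tia1. The interaction of Taf15 was 0.076 rescaled, 0.15 with TPM, 0.036 without the low-depth libraries and −0.19 to 0.073 with 1 left out. That of Tardbp was 0.18 with TPM and 0.010 with weights, that of Hnrnpa2b1 0.011 rescaled and 0.014 with weights, and that of Atxn2 −0.057 with weights and −0.017 to 0.12 with 1 left out. Between the ages Tardbp was −0.17 with TPM, and Hnrnpa1 was 0.078 rescaled and −0.064 to 0.0045 with 1 left out. For the unproductive share in percentage points, decay transcripts alone gave 1.80 for Tardbp and 0.0058 for Hnrnpa2b1 at 4 months and −3.23 for Tardbp at 19 months. The fit without the low-depth libraries gave 0.65 for Hnrnpa1 at 19 months, and with 1 library left out the 4-month values were −4.51 to 0.64 for Hnrnpa2b1 and −2.89 to 0.13 for Hnrnpa1. Raly at 4 months was called without WT replicate 3 (0.83, adjusted p = 0.0449 in limma), as were its interaction (−0.82, adjusted p = 0.0296) and that of Hnrnpa0 (−0.49, adjusted p = 0.0621). Hnrnpc lost the call between the ages without Gde2KO replicate 3 of 4 months (−0.70).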

Other observations

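Of 25 other hnRNP genes, which encode RNA-binding proteins of nuclear transcripts, 0 were called at 4 months (2 at an unadjusted p under 0.05, limma), with a median log2 difference of 0.10 against 0.11 over all genes and 22 of 25 differences positive. Raly had a log2 difference of 0.65 and Hnrnpa0 of 0.37, both with an adjusted p of 0.463. At 19 months 0 were called (1 at an unadjusted p under 0.05), with a median of −0.07 against −0.02 and 4 of 25 positive, and Hnrnpl (−0.12) and Hnrnph2 (−0.13) had an adjusted p of 0.711. For the interaction 0 were called (2 at an unadjusted p under 0.05), with Raly at −0.64 and Hnrnpa0 at −0.45 (adjusted p = 0.368 for both). Between the ages 1 was called lower, Hnrnpc (log2 −0.77, adjusted p = 0.000232), which fell short of the fold threshold after rescaling by the median of ratios (−0.67), and by the adjusted p alone 4 were higher and 9 lower, with a median of −0.13 against −0.15 over all genes.

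Of 24 stress granule genes, whose proteins gather with stalled messenger RNA in the cytoplasm, 0 were called at 4 months (1 at an unadjusted p under 0.05, limma), with Fmr1 at 0.28 (adjusted p = 0.463) and Ddx3x at 0.27 (adjusted p = 0.487). At 19 months 0 were called (2 at an unadjusted p under 0.05), with Elavl1 at −0.22 and Nufip2 at 0.28 (adjusted p = 0.711 for both). For the interaction 0 were called (1 at an unadjusted p under 0.05), with Nufip2 at 0.47 (adjusted p = 0.372) and Fmr1 at −0.29 (adjusted p = 0.389). Between the ages 0 were called with the fold threshold, and by the adjusted p alone 3 were higher and 10 lower (13 at an unadjusted p under 0.05). Atxn2l, the paralog of Atxn2, rose by 0.59 in log2 (adjusted p = 0.000152) and G3bp2 fell by 0.45 (adjusted p = 0.00247).

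Over the 12 libraries, with each value centred on its own group mean, the genes whose log2 level followed that of Tardbp most closely were Rbm39 (Pearson's r = 0.93), Zbtb24 (0.93), Gtf3c3 (0.92), Slc35a1 (0.92) and Pcf11 (0.92), of 12973 genes averaging at least 100 normalized counts. Among the 8 genes the values were 0.71 for Hnrnpa2b1, 0.68 for Ewsr1, 0.67 for Matr3, 0.59 for Hnrnpa1, 0.49 for Tia1, 0.18 for Taf15 and −0.32 for Atxn2. These are descriptions, since the libraries also share their depth and scale, and Gde2KO replicate 3 of 4 months is high for genes in general.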
